A study of Mus musculus with 4 samples.

Results

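The genes described here are the TGF-beta ligands Tgfb1, Tgfb2 and Tgfb3, the receptors Tgfbr1, Tgfbr2 and Tgfbr3, the signal transducers Smad2, Smad3 and Smad4, and Nrros, which holds latent TGF-beta at the cell surface. They were taken by gene symbol, and all 10 were found among the 21578 genes of the joined tables. RNA of brain endothelial cells was sequenced from newborn C57BL/6 mice at P0, with 2 libraries from Pd1fl/fl mice and 2 from Pd1cKO-Tie2 mice. Both genotypes carry floxed Pd1 alleles, and Pd1cKO-Tie2 mice carry a Tie2-driven Cre in addition, which is known to be active in blood cells and myeloid cells as well as in endothelium. The sources used here do not say how many pups went into a library, so all p-values measure the spread between these libraries only. The question put to the genes was whether their RNA differed between the genotypes in cells sorted as brain endothelium.

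TGF-beta is secreted in a latent form, wrapped in the latency peptide cut from its own precursor, and it is released near the receiving cell, in the brain mainly by integrins of the alpha-v class. The active ligand brings the type II receptor TGFBR2 together with the type I receptor TGFBR1, which phosphorylates SMAD2 and SMAD3. These enter the nucleus with SMAD4. The co-receptor TGFBR3, betaglycan, presents ligand and is of most use to TGF-beta2, which binds TGFBR2 poorly by itself. In brain endothelium the pathway is known for its part in vessel stability and in keeping developing vessels from bleeding, and in microglia for keeping their mature state.

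The ligands differ in the arginine-glycine-aspartate site through which alpha-v integrins pull on the latency peptide. The coding stretches around this site are shown because they separate the ligands, and capitals mark its 3 codons (arginine as CGN, AGA or AGG, glycine as GGN, aspartate as GAT or GAC), searched in frame on the coding strand of GENCODE M21 (GRCm38).
Tgfb1: cccaaacgtCGGGGCGACctgggcacc
Tgfb3: gaccatggcCGTGGAGACctggggcgt
The Tgfb1 site lies in exon 5 at chr7:25697142-25697150 on the plus strand, starting at base 730 of 1170 coding bases. The Tgfb3 site lies in exon 5 at chr12:86062165-86062173 on the minus strand, starting at base 781 of 1236. The coding sequence of Tgfb2, 1326 bases long, held 0 such sites in frame. Tgfb2 is the ligand with the most RNA in these libraries, as described next.

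The total counts ran from 13715837 to 24147311 per library, and Pd1cKO-Tie2 replicate 1 was the deepest. Levels are given as CPM, read counts per 1000000 after TMM scaling. A fixed floor of 3 counts, set for reading a listed count of 0, stands for 0.124 to 0.219 CPM of the unscaled totals. A gene that no table lists for a library was taken as 0 there and can hold up to 4 counts. Pdcd1, the targeted gene, held 32 counts in Pd1fl/fl replicate 1 and a listed 0 in both Pd1cKO-Tie2 libraries. It was not listed for Pd1fl/fl replicate 2, so its level separated Pd1fl/fl replicate 2 from neither Pd1cKO-Tie2 library. Of the endothelial markers, 12 of 12 were above 0 in every library. Their summed CPM was 14120 and 13236 in Pd1fl/fl, against 17146 and 17886 in Pd1cKO-Tie2. Markers of other cells were present too. Those of microglia and macrophages summed to 2319 and 2714 CPM in Pd1fl/fl, against 889 and 2002 in Pd1cKO-Tie2, and those of astroglia to 909 and 872 against 588 and 420. Pd1fl/fl replicate 1 stood apart in its neutrophil genes, at 906 CPM against 24.5 in Pd1fl/fl replicate 2 and 55.3 and 1.17 in Pd1cKO-Tie2. In bulk RNA of this kind, fewer cells of a type and less RNA per cell cannot be told apart.

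Of the 10 genes, 1 met the criterion of the study's methods, a fold change of at least 2 with a p of 0.05 or less. This was Tgfb3, which was lower in Pd1cKO-Tie2. Over all 15909 genes tested, 4.02% met the same criterion (1.41% higher and 2.61% lower in Pd1cKO-Tie2). A p under 0.05 was found for 2 of the 10 genes, Tgfb3 and Tgfbr2, and for 6.39% of all genes. After adjustment over all genes, edgeR's quasi-likelihood test left 0 of 15909 genes under 0.05 (1016 were under it unadjusted, and DESeq2 left 114), and its smallest adjusted p was 0.735. With 2 libraries per genotype, a two-sided exact permutation test on a single gene cannot go below 0.333, so the p-values given here come from the edgeR model, which shares its estimate of spread over all genes. DESeq2 gave adjusted p-values of 0.296 for Tgfb3 and 0.264 for Tgfbr2. Between the genotypes the levels did not overlap for 6 of the 10 genes, 2 above and 4 below in Pd1cKO-Tie2, against 35.8% of all genes (17.7% above and 18.1% below). The median log2 fold change of the 10 genes was -0.14, and that of all genes -0.0038.

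**Figure D1:**
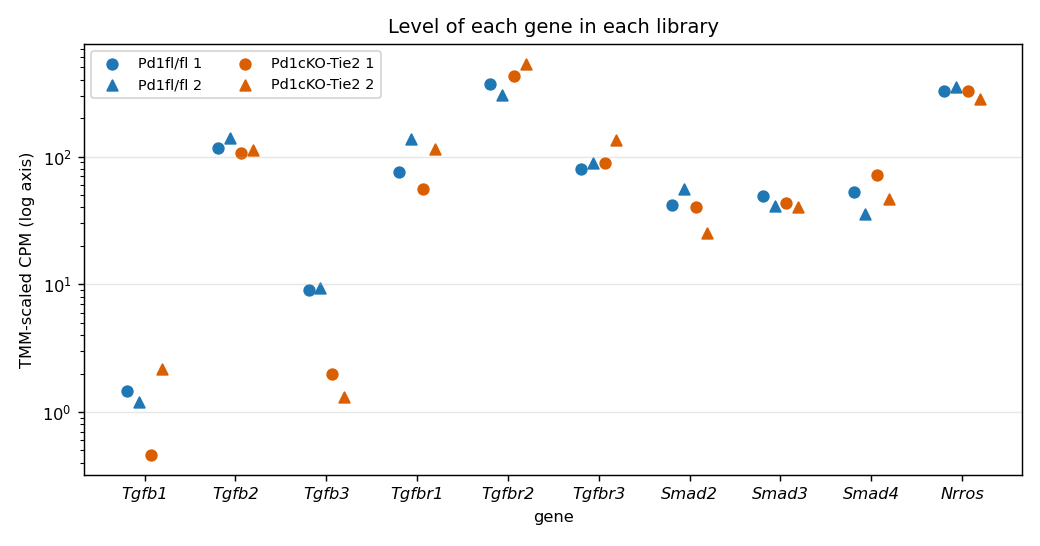
TMM-scaled CPM (log axis) of each of the 10 genes in each library, with circles for replicate 1, triangles for replicate 2, blue for Pd1fl/fl and orange for Pd1cKO-Tie2. Tgfb3 is the gene whose genotypes lie farthest apart, at 9.07 and 9.35 CPM against 2 and 1.32, while Tgfb1 has both its highest and its lowest value in Pd1cKO-Tie2.

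Across genes, levels were compared per kb of exon, averaged over the 4 libraries. Nrros came first at 76.5 CPM per kb (67.3 to 83), followed by Tgfbr2 at 50 (37.3 to 65.2) and Tgfb2 at 20.4 (18.3 to 24.1). Tgfbr3 at 15 (12.2 to 20.7), Tgfbr1 at 14.7 (8.59 to 20.9) and Smad4 at 13.9 (9.58 to 19.2) came next. The ranges of neighbours in the order overlapped from Tgfb2 down to Smad4. Smad3 at 7.81 CPM per kb (7.2 to 8.82), Smad2 at 4.63 (2.86 to 6.29) and Tgfb3 at 1.61 (0.389 to 2.76) were each apart from the gene above. Smad2 was divided by its GENCODE M21 exon length, and that gene model ends at 76310963, past the deposited end of 76305731. The level of Smad2 per kb, and so its place in this order, is therefore uncertain. Tgfb1 was the lowest at 0.263 (0.0911 to 0.435), and its range overlapped that of Tgfb3.

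Among the ligands, Tgfb2 made up most of the RNA per kb in every library. Its share of the 3 ligands was 87.1% and 88.9% in Pd1fl/fl, against 96.4% and 95.9% in Pd1cKO-Tie2. The share of Tgfb3 was 11.7% and 10.2% in Pd1fl/fl, against 3.11% and 1.93% in Pd1cKO-Tie2. Tgfb1 stayed between 0.479% and 2.16%. The ligand without this integrin site was thus the main ligand RNA of both genotypes, and per kb it exceeded Tgfb3 by 7.45 and 8.71 times in Pd1fl/fl and by 31 and 49.7 times in Pd1cKO-Tie2.

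Tgfb3 (ENSMUSG00000021253, GRCm38 chr12:86056745-86079041, minus strand) encodes a ligand known from palate fusion and lung development. It held 131 and 133 counts in Pd1fl/fl, against 48 and 18 in Pd1cKO-Tie2. These are 9.07 and 9.35 CPM (95% Poisson intervals 7.58 to 10.8 and 7.83 to 11.1) against 2 and 1.32 CPM (1.48 to 2.66 and 0.78 to 2.08), where the intervals cover counting error only. Both Pd1cKO-Tie2 libraries lay far below both Pd1fl/fl libraries, and the intervals of the genotypes did not touch. Means were 9.21 ± 0.199 CPM for Pd1fl/fl and 1.66 ± 0.487 CPM for Pd1cKO-Tie2 (SD, n = 2). Tgfb3 was thus 5.51-fold lower, a log2 fold change of -2.46 (SE 0.74). The unadjusted p of edgeR was 0.0168 and the adjusted p = 0.735. By p the gene ranked 329 of 15909.

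The direction of Tgfb3 was the same without any single library, with log2 fold changes of -2.79 to -2.19, but the call was not. Without Pd1fl/fl replicate 1 the p was 0.0546, without Pd1fl/fl replicate 2 it was 0.057, and without Pd1cKO-Tie2 replicate 2 it was 0.0511, so 3 of the 4 smaller fits in edgeR left Tgfb3 outside the criterion. Of its exon bases, 12.4% are shared with Gm37804 and Gm48008 on the other strand, and strand use in counting is not given in the sources used here. Gm37804 held at most 9 counts in any library. Gm48008 was not among the listed genes, so it held at most 4 counts in a library or was absent from the authors' annotation. Of its 50-base stretches, 8.79% also occur in another gene.

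Astroglia markers were lower in the same libraries as Tgfb3, but not they alone. In Pd1cKO-Tie2 replicates 1 and 2, markers of microglia and macrophages were together at 35.3% and 79.6% of their Pd1fl/fl mean. Those of endothelium were higher, at 125% and 131%. In Pd1cKO-Tie2, Tgfb3 was at 21.8% and 14.3% of its Pd1fl/fl mean, the 7 astroglia markers (0 at 0 counts) were together at 66% and 47.1% of theirs, and the 10 markers of pericytes and smooth muscle at 81.2% and 80.6%. The pericyte and smooth muscle sums overlapped, however, at 5735 and 3748 CPM against 3851 and 3821. In that list the smooth muscle gene Acta2 was at 0 counts in 3 libraries and Myh11 in Pd1fl/fl replicate 1, while its pericyte genes were present in all 4. All 7 astroglia markers had a negative log2 fold change (median -0.95), and 5 lay below in Pd1cKO-Tie2 without overlap (18.1% of all genes). Divided by the CPM of Slc1a3, a glutamate transporter of astroglia, Tgfb3 was still lower, with ratios of 0.0231 and 0.024 in Pd1fl/fl, against 0.00829 and 0.00625 in Pd1cKO-Tie2. Divided by Pdgfrb, a receptor of pericytes, the ratios were 0.0573 and 0.0887 against 0.0219 and 0.0143. So the gap in Tgfb3 was wider than the gap in either marker. The part of these cells in the result was not tested.

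Tgfb2 (ENSMUSG00000039239, chr1:186622792-186705989, minus strand), known from heart and vessel development, stood at 116 and 139 CPM in Pd1fl/fl, against 106 and 112 in Pd1cKO-Tie2. The genotypes did not overlap, but the nearest libraries, at 116 and 112 CPM, were close. Its log2 fold change was -0.23 (SE 0.19, edgeR adjusted p = 0.991), and without a single library it ran from -0.35 to -0.082. Tgfb1 (ENSMUSG00000002603, chr7:25687002-25705077, plus strand), the ligand best known from immune cells, was thinly covered, with 21 and 17 counts in Pd1fl/fl, against 11 and 30 in Pd1cKO-Tie2. This is 1.45 and 1.19 CPM against 0.459 and 2.19 CPM. The Pd1cKO-Tie2 libraries lay on either side of both Pd1fl/fl libraries, and their Poisson intervals, 0.229 to 0.822 and 1.48 to 3.13 CPM, did not meet. The spread within Pd1cKO-Tie2 was thus wider than counting error, and the genotypes could not be separated in Tgfb1 (log2 fold change -0.0048, SE 1.44, edgeR adjusted p = 1). Leaving out a library moved it between -1.51 and 0.73.

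**Figure D2:**
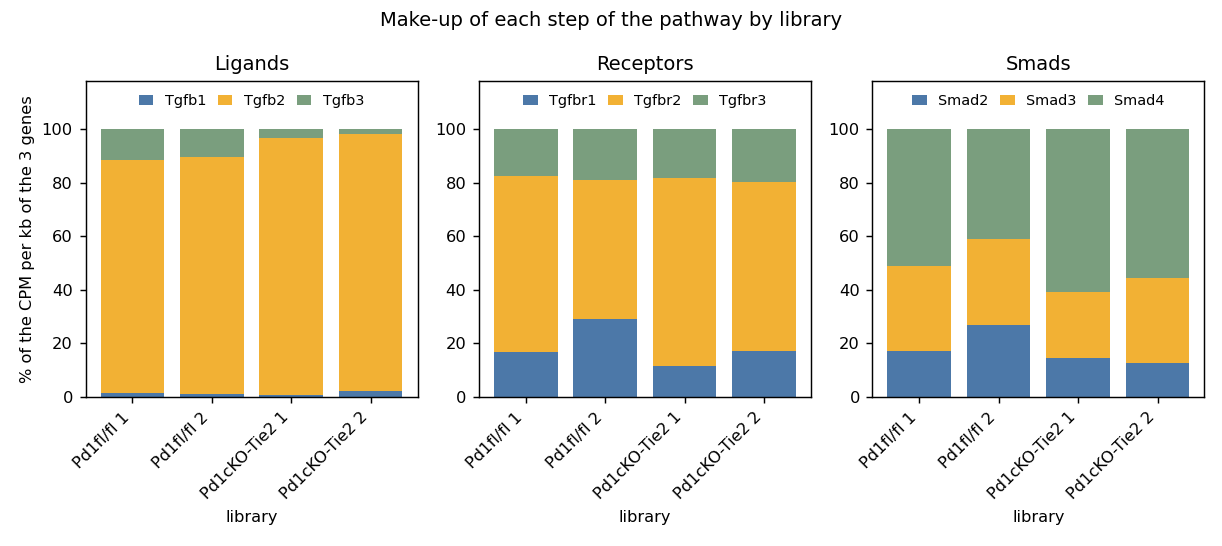
Stacked bars of the share (%) that each gene takes of the summed CPM per kb of the 3 ligands, the 3 receptors and the 3 Smads, by library. Tgfb2 fills 87.1% to 96.4% of the ligand bars and Tgfbr2 52.1% to 70.2% of the receptor bars.

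Among the receptors, Tgfbr2 and Tgfbr3 were higher and Tgfbr1 overlapped. Tgfbr2 (ENSMUSG00000032440, chr9:116084293-116175360, minus strand), the type II receptor that binds ligand first, was at 372 and 305 CPM in Pd1fl/fl, against 425 and 534 CPM in Pd1cKO-Tie2. Both Pd1cKO-Tie2 libraries were above both Pd1fl/fl libraries, with means of 338 ± 46.8 and 480 ± 76.7 CPM (SD, n = 2). This is a 1.42-fold difference, 0.50 on the log2 scale (SE 0.18), for which edgeR gave an unadjusted p of 0.034 and an adjusted p = 0.753. It stayed below the 2-fold bound and was not called. Without single libraries it ranged from 0.33 to 0.67, with p from 0.0147 to 0.186.

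The endothelial markers were higher in the same libraries. In Pd1cKO-Tie2, Tgfbr2 was at 126% and 158% of its Pd1fl/fl mean, and the 12 endothelial markers together at 125% and 131% of theirs. For all 12 the Pd1cKO-Tie2 libraries lay above (17.7% of all genes), with a median log2 fold change of 0.35. Divided by Cldn5, a tight junction gene of brain endothelium, Tgfbr2 gave 0.0675 and 0.0641 in Pd1fl/fl, against 0.065 and 0.0764 in Pd1cKO-Tie2. Relative to Cldn5 the genotypes thus overlapped. Divided by Pecam1, which encodes the CD31 used for sorting endothelial cells, the ratios were 0.901 and 0.746 against 0.988 and 0.929. Those did not overlap. The part of endothelial content in the level of Tgfbr2 was not tested.

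Tgfbr3 (ENSMUSG00000029287, chr5:107106570-107289629, minus strand), the co-receptor, was at 79.5 and 88.3 CPM in Pd1fl/fl, against 88.3 and 135 CPM in Pd1cKO-Tie2. The nearest libraries of the genotypes had the same value after rounding, so what gap there was came from Pd1cKO-Tie2 replicate 2. The difference was 0.41 on the log2 scale (SE 0.26, edgeR adjusted p = 0.946), and it ranged from 0.079 to 0.70 without single libraries. Of its exon bases, 4.54% are shared with Gm43422 on the same strand, a gene at 0 counts in Pd1fl/fl that held 23 and 20 in Pd1cKO-Tie2. Reads in that stretch cannot be given to either gene with certainty.

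Tgfbr1 (ENSMUSG00000007613, chr4:47353222-47414931, plus strand), the kinase that phosphorylates SMAD2 and SMAD3, varied more within the genotypes than between them. It was at 75.8 and 136 CPM in Pd1fl/fl, against 56.1 and 115 CPM in Pd1cKO-Tie2, with replicate 1 the lower library in each. A log2 fold change of -0.31 (SE 0.43, edgeR adjusted p = 1) resulted, which ranged from -0.91 to 0.18 without single libraries. The ratio of Tgfbr2 to Tgfbr1 per kb was 3.91 and 1.79 in Pd1fl/fl, against 6.05 and 3.69 in Pd1cKO-Tie2, so the type II receptor RNA exceeded the type I in every library while the genotypes overlapped. The share of Tgfbr3 among the receptors lay between 17.6% and 20% in all 4 libraries.

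**Figure D3:**
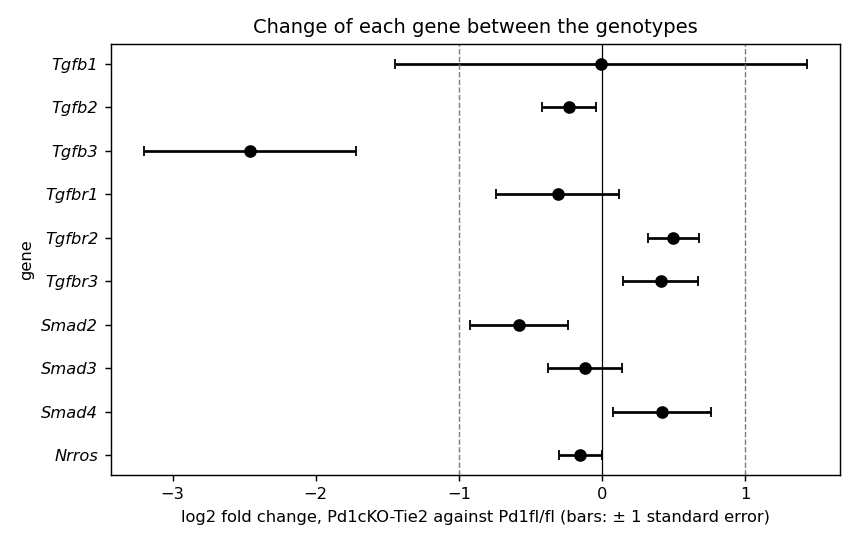
Log2 fold change of each gene in Pd1cKO-Tie2 against Pd1fl/fl, with bars of 1 standard error from edgeR and dashed lines at the 2-fold bound. Tgfb3, at -2.46, is beyond the lower line with its whole bar, and the points of the other 9 genes lie between the lines.

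None of the 3 Smads met the criterion, which 4.02% of all genes met. Smad2 (ENSMUSG00000024563, chr18:76241580-76305731, plus strand), phosphorylated by TGFBR1, was at 42 and 55.2 CPM in Pd1fl/fl, against 40.1 and 25.1 CPM in Pd1cKO-Tie2. Both Pd1cKO-Tie2 libraries were below, the first of them by a small margin. Its log2 fold change was -0.58 (SE 0.34, edgeR adjusted p = 0.928), with -0.94 to -0.28 on leaving out single libraries. Smad3 (ENSMUSG00000032402, chr9:63646767-63757994, minus strand), phosphorylated by the same receptor, had the narrowest range of the Smads, at 48.9 and 41.3 CPM against 43.1 and 39.9. Its genotypes overlapped, with a log2 fold change of -0.12 (SE 0.26, edgeR adjusted p = 1).

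Smad4 (ENSMUSG00000024515, chr18:73639009-73703780, minus strand), the partner that TGF-beta and BMP signals share, was at 53 and 35.6 CPM in Pd1fl/fl, against 71.2 and 46.9 CPM in Pd1cKO-Tie2. Within each genotype replicate 1 was the higher library, and the genotypes overlapped (log2 fold change 0.42, SE 0.34, edgeR adjusted p = 0.985). Without Pd1cKO-Tie2 replicate 1 this fold change was 0.094, and without Pd1fl/fl replicate 1 it was 0.74, the ends of its range. Per kb, Smad4 took 51.2% and 41.1% of the Smad RNA in Pd1fl/fl, against 60.8% and 55.7% in Pd1cKO-Tie2, while Smad2 took 17.2% and 27% against 14.5% and 12.6%. Both shares separated the genotypes, Smad4 upward and Smad2 downward, although the level of Smad4 did not. No test was run on shares, and those of the Smads carry the uncertain length of Smad2.

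Nrros (ENSMUSG00000052384, chr16:32142785-32165594, minus strand) encodes a transmembrane protein that anchors latent TGF-beta1, in the brain on microglia and other macrophages, where it is needed for their development. It was at 326 and 347 CPM in Pd1fl/fl, against 324 and 281 CPM in Pd1cKO-Tie2. The libraries Pd1fl/fl replicate 1 and Pd1cKO-Tie2 replicate 1 were nearly equal, and the log2 fold change was -0.15 (SE 0.15, edgeR adjusted p = 1). It ran from -0.25 to -0.049 without single libraries. Lrrc32, the related anchor found on endothelial cells, platelets and regulatory T cells, had much less RNA per kb. Nrros exceeded it 30.9 and 34.8 times in Pd1fl/fl and 29 and 22.7 times in Pd1cKO-Tie2.

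Nrros and the summed microglial markers parted in Pd1cKO-Tie2 replicate 1 and not in replicate 2, while single markers varied. Of the 13 markers, 0 were at 0 counts in any library, 8 lay below in Pd1cKO-Tie2 (18.1% of all genes), and the median log2 fold change was -0.80. In Pd1cKO-Tie2 replicate 1, Nrros was at 96.4% of its Pd1fl/fl mean, while Csf1r, the growth factor receptor that microglia depend on, was at 41.6%, P2ry12, a nucleotide receptor of microglia, at 39%, and the 13 markers of microglia and macrophages together at 35.3%. In Pd1cKO-Tie2 replicate 2 the same values were 83.6%, 77%, 81.5% and 79.6%. The ratio of Nrros to Csf1r was 0.642 and 0.56 in Pd1fl/fl, against 1.38 and 0.648 for Pd1cKO-Tie2 replicates 1 and 2, and that to P2ry12 was 1.2, 1.26, 3.04 and 1.26 in the same order. For Csf1r and P2ry12, then, Pd1cKO-Tie2 replicate 1 departed from a ratio the other 3 libraries nearly shared. Not all markers of the list behaved like these. In Pd1cKO-Tie2 replicate 2, Tmem119 was at 69.1 CPM and Trem2 at 8.41, against Pd1fl/fl means of 119 and 18.3. In Pd1cKO-Tie2 replicate 1, Pf4 was at 18.8 CPM against a Pd1fl/fl mean of 18.2. Cx3cr1 was at 37.7 and 233 CPM within Pd1fl/fl. Ptprc, which encodes CD45, the leukocyte protein that the study's methods label beside CD31 when sorting brain endothelial cells, was at 86.2 and 138 CPM in Pd1fl/fl, against 54.5 and 67.8 in Pd1cKO-Tie2. The methods do not say which CD45 gate was kept, and which cells held the Nrros RNA was not tested.

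**Figure D4:**
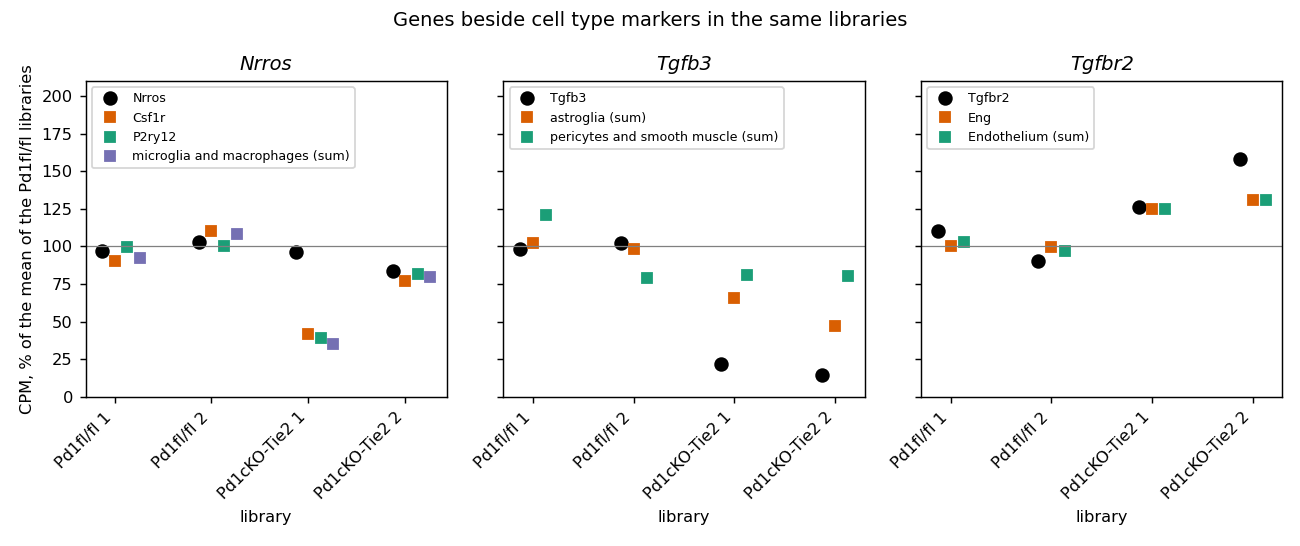
CPM as a percentage of the mean of the Pd1fl/fl libraries for Nrros, Tgfb3 and Tgfbr2 (black circles) beside marker genes and summed marker lists (squares) in the same libraries. Nrros is at 96.4% in Pd1cKO-Tie2 replicate 1 where the microglial sum is at 35.3%, Tgfb3 is below the astroglial sum in both Pd1cKO-Tie2 libraries, and Tgfbr2 is at or above the endothelial sum in both.

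The other genes of the pathway were taken from a list of 58 genes by role, of which 55 were in the tables and 52 were tested. Of these 52, 1 met the criterion (4.02% of all genes) and 7 had a p under 0.05, 5 higher and 2 lower in Pd1cKO-Tie2 (6.39% of all genes). The 5 were Zfyve9, Eng, Bambi, Ldlrad4 and Tsc22d1, and the 2 were Tgif1 and Tgfbrap1. Bambi, Tgif1 and Tgfbrap1 are named as part of this count only. The genotypes did not overlap for 25 of them, 15 above and 10 below (35.8% of all genes). Their median log2 fold change was -0.048. The called gene was Zfyve9, the SARA anchor that brings SMAD2 to the receptor, at 10.7 and 7.03 CPM in Pd1fl/fl, against 16.5 and 22.4 CPM in Pd1cKO-Tie2. Zfyve9 was 2.19-fold higher (log2 fold change 1.13, SE 0.45), with an unadjusted p of 0.0484 and an adjusted p = 0.767 in edgeR. The p lay close to the bound, and the call was lost in DESeq2 with a p of 0.0665, under several other settings, and in 3 of the 4 fits without a single library.

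Among the 10 tested genes of latency and activation, 0 were called (4.02% of all genes), 4 lay below (18.1% of all genes) and 2 above (17.7%) in Pd1cKO-Tie2, and the median was -0.39. Thbs1, thrombospondin-1, which can release latent TGF-beta and is also a target of the pathway, had the smallest p of the class, with 35.2 and 50.9 CPM in Pd1fl/fl, against 17.4 and 29.8 CPM in Pd1cKO-Tie2 (log2 fold change -0.87, SE 0.39, edgeR adjusted p = 0.839). Thbs1 met the criterion without Pd1fl/fl replicate 1 (-1.11, unadjusted p of 0.0453) and without Pd1cKO-Tie2 replicate 2 (-1.30, unadjusted p of 0.0298), and stood at -0.58 and -0.52 without either of the other libraries. Ltbp4, which ties latent TGF-beta to the matrix, had the highest mean CPM of the class without regard to length, at 41.9 and 48.3 CPM against 82.4 and 50.7. Itgb8, chosen after its values were seen because its integrin activates TGF-beta in the brain from the side of glia, was at 12.9 and 41.6 CPM in Pd1fl/fl, against 18.5 and 12.1 CPM in Pd1cKO-Tie2. Its high value was that of Pd1fl/fl replicate 2 alone.

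The 10 other receptors and co-receptors of endothelium had a median of 0.35, and 8 of the 10 had a positive log2 fold change. A positive value was found for 7888 of all 15909 genes tested. Of the 10, 0 were called (4.02% of all genes). The genotypes did not overlap for 6 of the 10 (35.8% of all genes), 5 above (17.7%) and 1 below (18.1%). Eng, endoglin, a co-receptor that endothelial cells make in large amounts, was at 1205 and 1194 CPM in Pd1fl/fl, against 1501 and 1576 CPM in Pd1cKO-Tie2 (log2 fold change 0.36, SE 0.10, edgeR adjusted p = 0.735). The endothelial markers had the same median, 0.35, and Eng was at 125% and 131% of its Pd1fl/fl mean, as were those markers together. The part of endothelial content in the level of these receptors was not tested.

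Among the 7 tested other Smads and partners the median was -0.011, and Zfyve9 was the 1 gene called (4.02% of all genes). Smad5, which carries BMP signals, had the highest mean CPM of the class and overlapped, at 257 and 275 CPM in Pd1fl/fl, against 287 and 205 CPM in Pd1cKO-Tie2. Of the 10 inhibitors, 0 were called (4.02% of all genes) and the median was -0.004. Ldlrad4, which keeps SMAD2 and SMAD3 from the receptor, was at 29.5 and 27.4 CPM in Pd1fl/fl, against 50.5 and 55.7 CPM in Pd1cKO-Tie2, a log2 fold change of 0.90 (SE 0.26, edgeR adjusted p = 0.735) just under the 2-fold bound. Skil, a co-repressor of SMADs, overlapped at 383 and 370 CPM against 326 and 398.

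The 16 tested target genes had a median of -0.15, with 0 called (4.02% of all genes), 5 above (17.7%) and 4 below (18.1%). Tsc22d1, a gene induced by TGF-beta, had both the smallest p and the highest mean CPM of the class, at 2578 and 2522 CPM in Pd1fl/fl, against 3248 and 3349 CPM in Pd1cKO-Tie2 (log2 fold change 0.37, SE 0.09, edgeR adjusted p = 0.735). This difference was close in size to that of the endothelial markers.

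**Figure D5:**
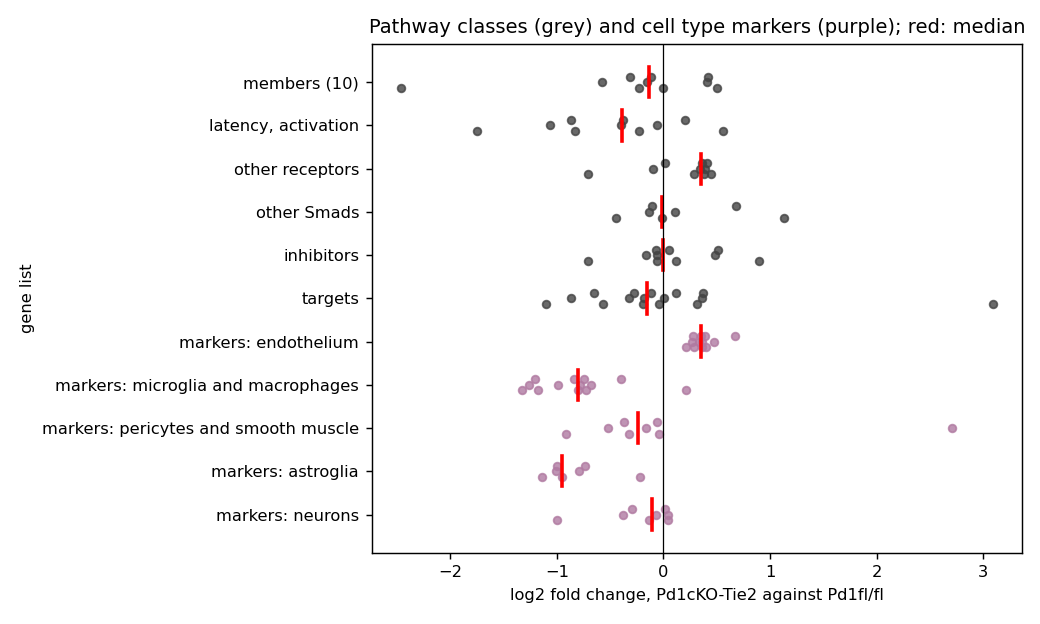
Log2 fold change in Pd1cKO-Tie2 against Pd1fl/fl of the 10 genes, of the pathway classes (grey) and of 5 cell type marker lists (purple), 1 point per tested gene with the median in red. The receptor class and the endothelial markers share a median of 0.35, and the astroglial and microglial markers have medians of -0.95 and -0.80.

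The genes of the fixed lists most like each of the 10 were found by the Euclidean distance of their centred log2 CPM over the 4 libraries, among 117 candidates, as a description of these libraries alone. Tgfbr2 was closest to the endothelial genes Cldn5 (0.199) and Tie1 (0.215), and Tgfbr3 to Smurf2 (0.164) and Pecam1 (0.21). Nrros lay closest to Vtn (0.159), a gene of pericytes, and Id1 (0.179), and no gene of the microglial list was among its nearest 2. Tgfb3 had no near neighbour, with Trem2 (1.34) of microglia and Aldh1l1 (1.41) of astroglia the closest, at distances well above those of every other gene. Tgfb2 lay near Junb (0.0574) and Id2 (0.0861), both targets of the pathway. Tgfb1 was nearest to Col1a2 (0.64) and C1qc (0.655), Tgfbr1 to Smad7 (0.363) and Ctgf (0.376), Smad2 to Aldoc (0.2) and Furin (0.372), Smad3 to Vtn (0.0969) and Smad1 (0.221), and Smad4 to Smurf1 (0.177) and Pdgfra (0.423).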

How the data were processed

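RNA from brain endothelial cells purified by flow cytometry was sequenced in 2 Pd1fl/fl and 2 Pd1cKO-Tie2 libraries. The authors deposited 4 tables, each setting 1 library of either genotype side by side. The counts are whole reads per gene as the authors deposited them, without normalization, and the CPM columns are the authors' counts scaled to the library total, used here only to recover those totals. Per the labels, the submitters' processing notes name TopHat2 2.0.12, Bowtie2 2.2.3 and HTSeq 0.6.0 and the build mm9, with no roles, whereas the gene positions in the files are those of GRCm38 (90.0% equal GENCODE M21). The position printed for each gene is the one in the files. Strand use in counting is not given in the sources used here. The authors' fold changes, p-values, adjusted p-values and direction calls for each pair were not used. The column of Pd1cKO-Tie2 replicate 2 is numbered unlike any sample label and was assigned to its genotype only.

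The tables were joined to 21578 genes. A table lists a gene that has reads in both of its libraries or 5 or more in either, and 5 broken lines in each of 2 tables were skipped. Unlisted genes, which have 4 counts or fewer, were taken as 0, and unlisted reads were 0.00495% to 0.0107% of a total. Testing used edgeR 4.0.16 in R 4.3.3 (quasi-likelihood F test, TMM, filterByExpr by genotype, no covariate), which left 15909 genes, with a common biological coefficient of variation of 0.61 and Benjamini-Hochberg adjustment over all of them. Genes were called at 2-fold or more with an unadjusted p up to 0.05, as in the study's methods. Standard errors were derived from the F statistic. Alternatives were DESeq2 1.42.0, voom of limma 3.58.1, other filters and scalings, and leaving out each library. The test was also run on counts simulated from the levels and spread of these libraries, with 200 genes changed 4-fold. By the same criterion edgeR recovered 69.5% of them and called 2.93% of the unchanged genes. Distances used log2 CPM with a prior count of 2. GENCODE M21 gave exon lengths, overlaps and coding sites, read with Python 3.11.15. The 10 genes and all lists were chosen with earlier results of these data known. All 10 genes are described. Of the pathway list, the called genes and, per role, the gene with the smallest p and that with the highest mean CPM were named. Itgb8 was chosen after its values were seen. Lrrc32 and the single marker genes set beside Nrros, Tgfb3 and Tgfbr2 were named outside this rule.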

Additional observations from a re-analysis of the deposited data

How the results depend on the processing

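Of the 10 genes, 1 was called under each of the 7 alternatives that kept all libraries. Those alternatives called 3.17% (voom) to 4.34% (DESeq2) of all genes tested, and the fits without a single library called 3.84% to 4.9%. On leaving out single libraries the call was not always kept. Tgfb3 kept its direction throughout, at -2.52 to -2.38 with all libraries (p 0.00397 to 0.022). Of the pathway list, 0 genes were called with at least 10 counts in every library, with upper quartile scaling and with library size scaling, and 0 to 5 without single libraries (5 without Pd1fl/fl replicate 1, 2 without Pd1fl/fl replicate 2, 0 without Pd1cKO-Tie2 replicate 1). With DESeq2 and with no filter the called gene was Col1a1, at 0 CPM in all but Pd1fl/fl replicate 1, in place of Zfyve9. The log2 fold change of Tgfb1 turned to 0.0026 with no filter. On leaving out single libraries it ran from -1.51 to 0.73 for Tgfb1, from -0.91 to 0.18 for Tgfbr1, from -0.23 to 0.012 for Smad3, from -0.37 to 0.11 for Smad5 and from -0.20 to 0.09 for Skil, so their signs turned. The cause was not tested. The median of the 10 genes ran from -0.20 (library size scaling, which moved that of all genes to -0.065) to -0.036, and that of the pathway list from -0.16 to 0.17. Over all genes, 480 to 936 were called. Without Pd1fl/fl replicate 2, 484 were higher and 387 lower in Pd1cKO-Tie2, against 224 and 416 with all libraries. In fits without a library, the lone library of its genotype is assumed to vary like the others. No paired analysis was possible because the labels of the genotypes share only the number 1. Counting error is widest for Tgfb1 and Tgfb3, at 11 to 30 and 18 to 133 counts per library.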
